A study of Mus musculus with 4 samples.

Results

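The cytosolic ribosomal protein genes were described in the mouse mammary carcinoma line 4T1, with and without recombinant IL-17A. Members were the protein-coding genes of the deposited table whose symbols are Rpl or Rps followed by a number and the usual suffixes, together with Rplp0, Rplp1, Rplp2 and Rpsa. Pseudogenes and the kinases of the Rps6k family were left out. This gave 82 of the 21840 rows of the table, 50 of the large (60S) and 32 of the small (40S) subunit. Rpl10l and Rpl39l also match by symbol but have no row in the table and were not analysed here. Fau and Rack1, which encode a ribosomal and a ribosome-bound protein under other names, are not matched by the symbols and are described separately.

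All libraries are labelled epithelial and wild type. The vehicle group (PBS, phosphate-buffered saline) and the group given recombinant IL-17A (rIL17), an inflammatory cytokine of T helper cells, had 2 libraries each, 4 in all. The sources used here do not give the dose or the length of treatment. The labels do not say whether the 2 libraries of a group are separate cultures. The p-values therefore rest on a spread between libraries that could be technical.

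The ribosome is built from ribosomal RNA and about equal amounts of each ribosomal protein, and mammalian cells make nearly every such protein from 1 intron-containing gene. The mRNAs are short, very abundant and in general start with a run of pyrimidines, the TOP motif, through which growth signals of the mTOR pathway control their translation. Their abundance has left many processed pseudogenes in the mouse genome, copies of the spliced mRNA that can be nearly identical to it. Free ribosomal proteins, above all those of the 5S particle (Rpl5 and Rpl11), bind Mdm2 and so link ribosome assembly to p53.

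Values are normalized counts, that is, reads assigned to a gene and divided by 1 size factor per library. Divided by the step between neighbouring values, they came to 17511450 to 17970104 reads per library. Of the markers fixed for cell types, the epithelial list had a row for 7 of 7 genes. Its summed levels were 50933 to 54832 normalized counts in PBS and 43274 to 45201 in rIL17. Most of these counts were Krt8, with 29749 and 32665 against 25498 and 26467, and Krt18, with 19346 and 20159 against 15966 and 16720. Of the 7 genes, 6 had a log2 fold change (rIL17 minus PBS) below 0, and Krt19 had 0.054. Ptprc, the pan-leukocyte marker, was listed at 0 in both PBS libraries and at 2.01 to 3.02 in rIL17, and was the only 1 of 5 leukocyte markers with a row. The fibroblast list, with 4 of 5 genes in the table, summed to 2442 to 2552 in PBS and 2965 to 2971 in rIL17. Nearly all of this sum was Pdgfra, with 2328 and 2462 against 2855 and 2862, and 2 of the 4 genes, Col1a1 and Pdgfrb, were lower in rIL17. Their part in the results below was not tested. In these bulk samples, fewer cells of a type and less RNA per cell cannot be told apart.

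The start regions of 4 genes that recur below are given because they show the pyrimidine run, here a C followed by at least 4 pyrimidines. Rpl26, Rps28 and Rpl22 had only shorter runs within 25 bases of the RefSeq start, which were not counted. Each sequence runs from 60 bases before to 25 bases after the start site in RefSeq (build GRCm38.p6), on the strand of the gene, and capitals mark the longest run of C and T that begins with C within 25 bases of the start. They lie at chr9:120571457-120571541 (Rpl14), chr2:39005107-39005191 (Rpl35, minus strand), chr3:90213624-90213708 (Rps27, minus strand) and chr3:28805448-28805532 (Rpl22l1).
Rpl14: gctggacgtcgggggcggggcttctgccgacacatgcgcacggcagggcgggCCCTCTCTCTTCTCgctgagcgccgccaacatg
Rpl35: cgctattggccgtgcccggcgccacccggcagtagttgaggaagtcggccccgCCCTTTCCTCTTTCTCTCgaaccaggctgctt
Rps27: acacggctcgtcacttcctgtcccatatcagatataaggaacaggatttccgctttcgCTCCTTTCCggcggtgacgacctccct
Rpl22l1: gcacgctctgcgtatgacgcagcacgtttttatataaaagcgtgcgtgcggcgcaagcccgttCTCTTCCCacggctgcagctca
The run had 14 bases in Rpl14, 18 in Rpl35, 9 in Rps27 and 8 in Rpl22l1.

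Over the 74 RefSeq promoters found for 62 members, from 250 bases before to 50 after the start, a C at the start followed by 4 pyrimidines stood in 17.6%, against 2.51% of all 32851 promoters of the same length. Within 25 bases of the start on either side, the same pattern stood in 79.7% and 55.6%. The following motifs were searched on both strands. CCGGAAG, the core bound by ETS factors such as GABP, was present in 35.1% of member promoters and 8.86% of all. AAGATGGC, the YY1 core, stood in 10.8% and 2.75%, and GGGCGG, the Sp1 box, in 60.8% and 35.7%. TATAAA, the TATA box, stood in 9.46% against 13.6%, and CACGTG, the E-box bound by Myc, in 10.8% against 7.15%. These are matches of letters only.

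Members lay on 19 chromosomes, with 14 on chromosome 7 and 8 on chromosome 17. Small nucleolar RNA (snoRNA) genes, which guide the modification of ribosomal RNA and are often released from introns, lay within the span of 30 of 82 members (36.6%), 58 snoRNA genes in all, against 185 of 13842 other protein-coding genes tested (1.34%). Rpl4, a large-subunit protein that lines the exit tunnel, held the most, with 5.

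In the control libraries as in the treated ones, ribosomal protein mRNAs were among the most abundant of the cell. Their share of all normalized counts was 5.68% in PBS replicate 1 and 6.31% in PBS replicate 2, and it was 5.60% and 5.68% in the rIL17 libraries, given here and below in the order of replicates 1 and 2. PBS replicate 2 stood above the other libraries, which lay within a narrow range. The ratio of summed 60S to summed 40S counts was 1.54, 1.54, 1.54 and 1.55 in the same order, so the balance between the subunits moved by less than the total. The median member had a mean of 11458 normalized counts over the 4 libraries, 66 members had a mean of at least 5000, and 13 were under 1500.

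Per kilobase of exon, the most abundant members were Rplp1, a protein of the acidic stalk that recruits translation factors, with 69218 normalized counts per kilobase, and Rpl41, the smallest ribosomal protein, with 25539. Rpl36 followed with 22354 and Rps15, a protein of the small-subunit head, with 20447. The lowest among members with a mean of at least 10 were Rpl36al with 16.6 normalized counts per kilobase, Rpl24 with 23.0, Rpl21 with 42.0 and Rpl29 with 43.6. From Rplp1 to the paralog Rpl36al, the level per kilobase differed 4176-fold, and 2894-fold with rows of nearly identical sequence added, as described below.

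No ribosomal protein gene passed the test between rIL17 and PBS. With limma on log2(normalized count + 1) and Benjamini-Hochberg adjustment over 20677 genes, 0 of 81 tested members were called at an adjusted p below 0.05, and 2 had an unadjusted p below 0.05. The same fit called 0% of all genes in either direction, with 2642 at an unadjusted p below 0.05, so the count of 0 does not set the members apart. With a stricter filter, which left 12515 genes, 0.623% of genes were called higher and 0.184% lower in rIL17, again with 0 of 81 members, and with 3 members at an unadjusted p below 0.05. Among members, the smallest adjusted p was 0.373 in the first fit and 0.246 with the stricter filter, and limma-voom, which called 0.00484% of genes, also called 0 members. The same count of 0 members came from GC correction (0.363% of genes called), GC correction with the replicate number as a block (1.95%), robust shrinkage (1.30%), total-count scaling (0.120%), upper-quartile scaling (0.00493%) and family sums with the stricter filter (0.640% higher and 0.178% lower). Rpl3l, a form specific to striated muscle, was at the level of 1 read in 3 libraries and 0 in rIL17 replicate 2 and did not pass the filter on low values.

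Most members had slightly less RNA in the rIL17 libraries, a direction that turned when PBS replicate 2 was left out, and whose sign, though not its place below the median of all genes, turned with a correction for GC content. The log2 fold change (rIL17 minus PBS) was below 0 for 62 of 81 members (76.5%), against 47.2% of all genes tested, with a median of -0.047 against 0.014. It was within 0.2 of 0 for 70 members and ran from -1.08 for Rpl17 to 1.63 for Rpl22l1. Both subunits shared this: 38 of 49 large-subunit genes were below 0 with a median of -0.056, and 24 of 32 small-subunit genes with a median of -0.035.

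For 17 of 81 members, the higher rIL17 library was below the lower PBS library, where 20.0% of all genes tested had this order. Other abundant genes had this order more often than the members, as given below. The reverse order held for 3 members, against 25.4% of all genes. For the other 61 members the groups overlapped.

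**Figure D1:**
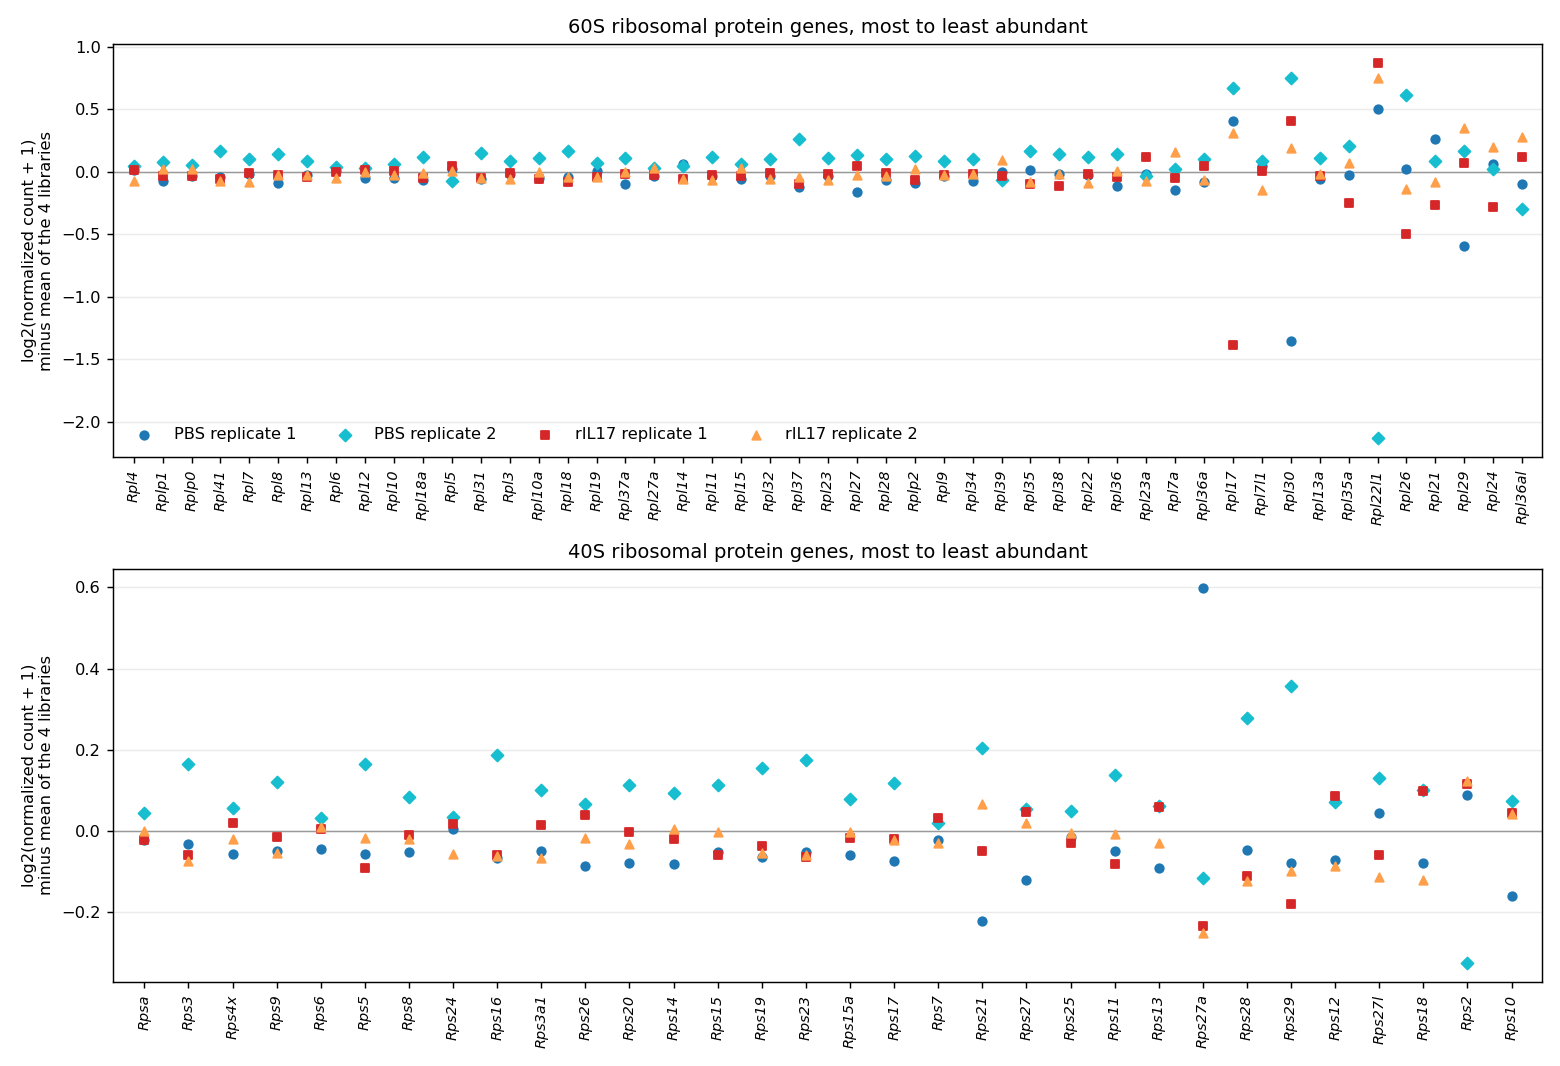
Each point is 1 library's log2(normalized count + 1) for 1 gene minus the mean of the 4 libraries for that gene; the upper panel shows the 49 tested large-subunit and the lower panel the 32 small-subunit genes, ordered from most to least abundant. PBS replicate 2 is the highest library for 67 of the 81 genes, against 28.8% of all genes tested. The widest scatter is in Rpl22l1 in the upper panel and in Rps27a in the lower panel.

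The gap between the 2 PBS libraries was larger than the difference between the groups for most members, as the plot of deviations by library shows. PBS replicate 2 was the highest of the 4 libraries for 67 of 81 members (82.7%). It was the highest for 28.8% of all genes tested and for 49.7% of the 324 other abundant genes described next. It lay above PBS replicate 1 for 71 members. The median absolute gap on the log2 scale was 0.17 between the PBS libraries and 0.051 between the rIL17 libraries. The difference between the groups exceeded the PBS gap for 15 members, a count that was not taken over all genes. The PBS gap is between single libraries and the group difference between means, so the measures are unlike. Without PBS replicate 2, 29 of 81 members were below 0 and the median was 0.023. Over all genes, 10015 of 20640 were then below 0 with a median of 0.0087, so the members' median lay above that of all genes. Without PBS replicate 1, 73 members were below 0 and the median was -0.13, against 10085 of 20644 genes and 0.0069.

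Other abundant genes were compared for the same gap and for the order of the groups. The 324 other protein-coding genes whose mean reached the first quartile of the members (6806 normalized counts) had a median difference of 0.029 between PBS replicates 2 and 1, against 0.16 in the members. The 45 of them with a longest transcript of at most 1751 bases, the third quartile of the members, had 0.065. The gap was also seen in the parts most like the members, which are described below. It was 0.11 in the 77 mitochondrial ribosomal protein genes and 0.33 in the 434 tested rows matched to members by sequence. PBS replicate 2 was the highest library for 57 of the 77. The median log2 fold change between groups was -0.039 for the 324 and 0.0092 for the 45. Below 0 were 59.9% of the 324 and 44.4% of the 45, against 76.5% of the members. Both rIL17 libraries were lower than both PBS libraries for 136 of the 324 and 13 of the 45, against 17 of 81 members. Both were higher for 67 of the 324 and 18 of the 45, against 3 members.

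Correction for GC content moved the result as well. The members' longest transcripts had a median of 50.9% GC, from 39.1 to 62.4%. After correction of each library for GC content, 29 of 81 members were below 0 with a median of 0.037, against 7980 of 20658 genes below 0 and a median of 0.064 over all genes. The correction moved the median of all genes up as well, and the members' median lay below that of all genes before and after it. Within the members as fitted without correction, 26 of 35 with under 50% GC and 36 of 46 with 50% or more were below 0. Their medians were alike, at -0.051 and -0.046. The part of GC content and of PBS replicate 2 in the lower values was not tested.

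**Figure D2:**
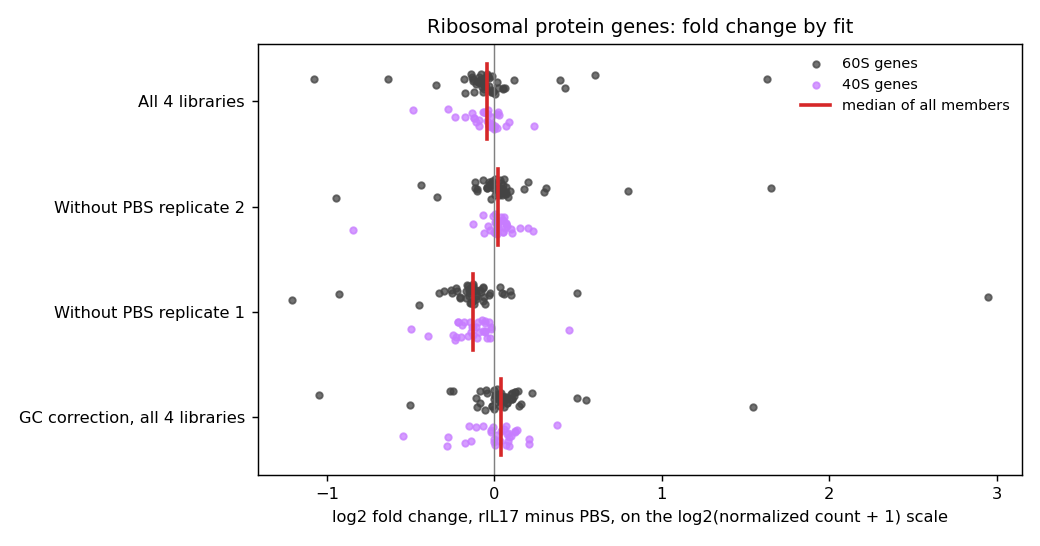
Log2 fold changes (rIL17 minus PBS) of the ribosomal protein genes in 4 fits, each point 1 gene, dark for 60S and violet for 40S, with red lines at the medians; vertical scatter within a band only separates points. The median moves from -0.047 with all libraries to 0.023 without PBS replicate 2, -0.13 without PBS replicate 1 and 0.037 after GC correction.

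Rps27l and Rpl14 had the smallest p-values. Like Rpl35, Rps28, Rps27a, Rpl26, Rpl21 and Rpl7l1, they were named for a small p. The separation of groups in these genes, and the lower share of Rps27l given below, therefore follow in part from the choice. Rps27l encodes a paralog of the small-subunit protein Rps27 that is known as a p53 target and lies at chr9:66946086-66949516 (mm10, GENCODE M21). Its normalized counts were 2478 and 2631 in PBS and 2310 and 2222 in rIL17, so both treated libraries lay below both controls. The log2 fold change was -0.17 (SE 0.054, 95% interval -0.33 to -0.017, limma adjusted p = 0.373), and without each library in turn it lay between -0.22 and -0.13. After GC correction it was -0.28.

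Rpl14, a large-subunit protein gene at chr9:120571444-120574654 with the pyrimidine run shown above, had 15060 and 14914 normalized counts in PBS and 13916 and 13899 in rIL17. It was 1 of the 3 members with their highest value in PBS replicate 1, and its groups were each tighter than the distance between them. The log2 fold change was -0.11 (SE 0.036, limma adjusted p = 0.384) and changed to 0.025 after GC correction, below the median of 0.064 over all genes. Adding the reads of Rpl14-ps1, a processed pseudogene with 98.9% identity and 3581 to 3981 normalized counts, gave -0.089.

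Rpl35, a protein near the exit of the peptide tunnel, had 9451 and 10524 normalized counts in PBS and 8769 and 8860 in rIL17, with a log2 fold change of -0.18 (limma adjusted p = 0.414). PBS replicate 2 was its highest library, and the value was -0.10 without it and -0.046 after GC correction. Rps28, a small-subunit protein at the mRNA exit, had 6434 and 8064 normalized counts in PBS and 6152 and 6105 in rIL17. Rps29, a neighbouring protein of the small-subunit head, had 6093 and 8246 against 5688 and 6011. In both, PBS replicate 2 stood apart and PBS replicate 1 lay near the treated libraries, and without PBS replicate 2 their log2 fold changes went from -0.23 to -0.070 and from -0.28 to -0.059. After GC correction they were -0.15 and -0.17.

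Rps27a, which encodes ubiquitin fused to a small-subunit protein, went the other way within the controls. Its normalized counts were 10505 and 6403 in PBS and 5900 and 5824 in rIL17. PBS replicate 1 alone was high here, and the log2 fold change of -0.48 (SE 0.27, limma adjusted p = 0.522) became -0.13 without it.

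Fau and Rack1 were not called. Fau, a ubiquitin-like protein fused to small-subunit protein eS30, had 9753 and 10921 normalized counts in PBS and 9377 and 9753 in rIL17. Rack1, a scaffold on the small subunit, had 29648 and 31908 against 29367 and 30970. As in most members, PBS replicate 2 was the highest library for both.

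The stalk and the most abundant members differed little. Rpsa, the small-subunit protein also described as the laminin receptor precursor, was the most abundant member by counts, with 58396 and 61076 normalized counts in PBS and 58354 and 59320 in rIL17. Rplp0, the base of the stalk, had 30161 and 32058 against 30206 and 31357. PBS replicate 2 was the highest library in both. Rplp1 had 32768 and 36506 against 33818 and 35066. Rplp2, its partner in the stalk, had 10253 and 11880 against 10438 and 11086. The groups overlapped for all 4. Their log2 fold changes were -0.022, -0.015, -0.0063 and -0.037, with 95% intervals of -0.16 to 0.12, -0.17 to 0.14, -0.22 to 0.20 and -0.30 to 0.23, and all 4 turned above 0 after GC correction and without PBS replicate 2.

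The other members at the top per kilobase were alike. Rpl41 had 28987 and 33377 normalized counts in PBS and 28659 and 28297 in rIL17. Rpl36 had 7921 and 9425 against 8304 and 8597. Rps15 had 12412 and 13923 against 12343 and 12849. PBS replicate 2 was the highest library in all 3, and only in Rpl41 did both treated libraries lie below both controls.

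Of the 5 paralogs in the table, Rpl22l1 showed the largest difference and the largest error. Rpl22l1, the paralog of Rpl22 and able to take its place in the ribosome, lies at chr3:28805436-28807424. Its normalized counts were 724 and 115 in PBS and 935 and 859 in rIL17. PBS replicate 1 was 6.28 times higher than PBS replicate 2, and both rIL17 libraries lay above both controls. The log2 fold change was 1.63 (SE 0.98, 95% interval -1.21 to 4.47, limma adjusted p = 0.547). Without PBS replicate 2 it was 0.31, and without PBS replicate 1 it was 2.95.

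Rpl22 itself had 8540 and 9411 normalized counts in PBS and 8585 and 8168 in rIL17, with overlapping groups. Rpl22l1 thus made up 7.82% and 1.21% of the counts of the pair in PBS and 9.82% and 9.52% in rIL17. Genes of the lists below that were also lowest in PBS replicate 2 included Npm1 and Nap1l1, and others such as Tpt1 and Taf1d, chosen after their values were seen, so this is not particular to Rpl22l1. Npm1, the nucleolar histone chaperone, had 18297 and 12518 normalized counts in PBS and 21489 and 19695 in rIL17. Nap1l1, another histone chaperone, had 6530 and 4329 against 7379 and 7020. The log2 fold changes of Npm1 and Nap1l1, 0.44 and 0.44, became 0.17 and 0.14 without that library and 0.29 and 0.054 after GC correction.

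**Figure D3:**
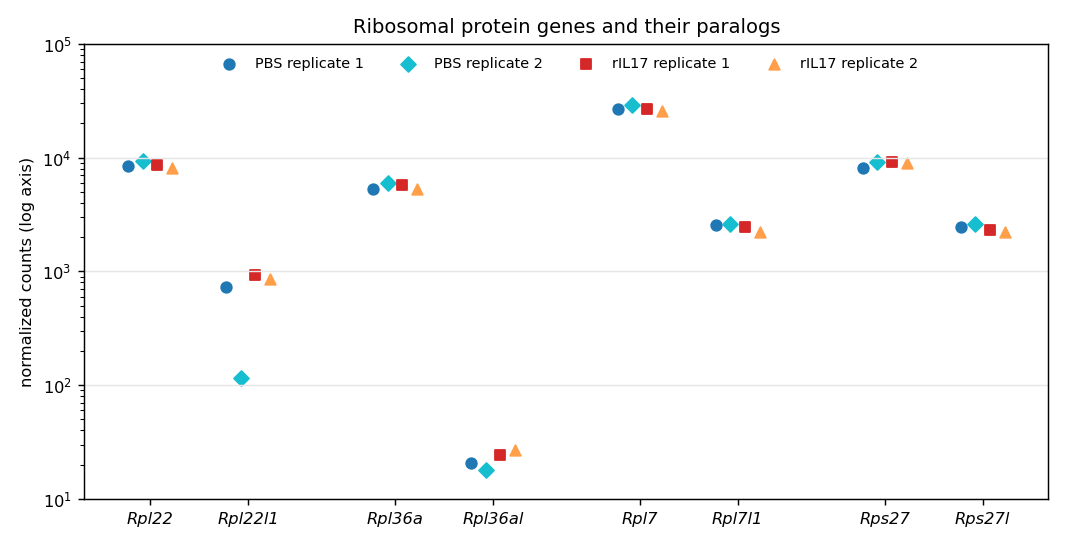
Normalized counts on a log axis for 4 ribosomal protein genes, each followed by its paralog, with 1 point per library (blue circles and diamonds, PBS; red squares and orange triangles, rIL17). Rpl22l1 in PBS replicate 2, at 115, is the point farthest from the other libraries of its gene.

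Rps27l made up 23.4% and 22.3% of the counts of Rps27 and Rps27l in PBS and 20.2% and 19.9% in rIL17, the share being lower in both treated libraries. Rps27 had 8117 and 9167 normalized counts in PBS and 9128 and 8956 in rIL17, with overlapping groups and a log2 fold change of 0.068. Rpl7l1, a paralog of Rpl7 linked to ribosome assembly, had 2561 and 2622 normalized counts in PBS and 2483 and 2243 in rIL17, with a log2 fold change of -0.14 (limma adjusted p = 0.487). Without rIL17 replicate 2 it was -0.062, and after GC correction -0.052. Its share of the pair with Rpl7 was 8.71% and 8.25% in PBS and 8.42% and 8.03% in rIL17.

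Rpl7 had 26855 and 29153 normalized counts in PBS and 26998 and 25675 in rIL17. Rpl36al had a low own row, with 20.6 and 17.9 normalized counts in PBS and 24.1 and 27.1 in rIL17. Rpl36a had 5280 and 5993 against 5769 and 5339. Of the exon bases of Rpl36al, 24.5% overlap Gm49383 on the same strand, so its own row is uncertain. Both treated libraries were the higher ones for Rpl36al, but its log2 fold change of 0.39 had an interval of -0.27 to 1.06. Rpl3, whose muscle form Rpl3l was near 0, had 15598 and 16784 normalized counts in PBS and 15650 and 15140 in rIL17.

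Several members had few reads in their own row and many in rows of nearly identical sequence. The coding sequences of the members were compared with the transcripts of all other rows, and a row was matched at 90% identity or more over at least 50% of the coding sequence. This matched 460 rows to 77 members, 448 of them annotated as pseudogenes and 12 as protein coding, with 40 for Rpl21 alone. For 29 members the matched rows held more than 10% of the counts of the own row, and for 11 they held more counts than the own row. With the matched rows added, the family took 6.70% and 7.48% of normalized counts in PBS and 6.65% and 6.71% in rIL17.

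Rpl26, which is known to bind p53 mRNA, is an example. Its own row held 232 and 349 normalized counts in PBS and 161 and 208 in rIL17, with a log2 fold change of -0.63 (SE 0.27, limma adjusted p = 0.438). Gm15772, a processed pseudogene with 99.5% identity over the whole coding sequence, held 12754 and 13859 in PBS and 12974 and 13122 in rIL17. The own row had 1.76% of the counts of its family, and the summed family had a log2 fold change of -0.039.

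Rpl17, a protein at the tunnel exit, had the lowest log2 fold change of all members, set by 1 library. Its own row held 5578 and 6692 normalized counts in PBS and 1607 and 5225 in rIL17. In rIL17 replicate 1, where the own row was low, Rpl17-ps10 held 5734, against 1757 and 1586 in the PBS libraries and 2212 in rIL17 replicate 2. The family sum was 10511, 11641, 10557 and 10511 in the 4 libraries, and its log2 fold change was -0.071 in place of -1.08. Without rIL17 replicate 1, the own row gave -0.23.

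Rpl30, a large-subunit protein, had a low own row in PBS replicate 1. The own row held 461 and 1982 normalized counts in PBS and 1562 and 1349 in rIL17, while Gm12191, a processed pseudogene with 99.7% identity, held 10605 to 10992. Unlike in Rpl17, the matched rows were not higher where the own row was low: the family sum was 11202, 13079, 12678 and 12450 in the 4 libraries. The log2 fold change of the own row was 0.60, and that of the family sum 0.054. Rpl17 and Rpl30, like Rps2, Rps10, Rps18 and Rps29, were chosen after their values were seen.

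Rps2, a protein at the mRNA entry of the small subunit, held 715 and 537 normalized counts in PBS and 729 and 733 in rIL17, while Rps2-ps10 and Rps2-ps13 held means of 19293 and 6777. Rps10, a protein of the small-subunit head, held 165 and 194 against 190 and 190, with 4856 on average in Rps10-ps2. In both genes the own row was a small part of the family, 2.47% in Rps2 and 3.46% in Rps10. Rps18, also of the head, held 1074 and 1216 against 1214 and 1043, with 5795 on average in Gm11361, a protein-coding row. In Rplp0, the own row and Gm8730, with 28773 on average, were nearly equal.

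**Figure D4:**
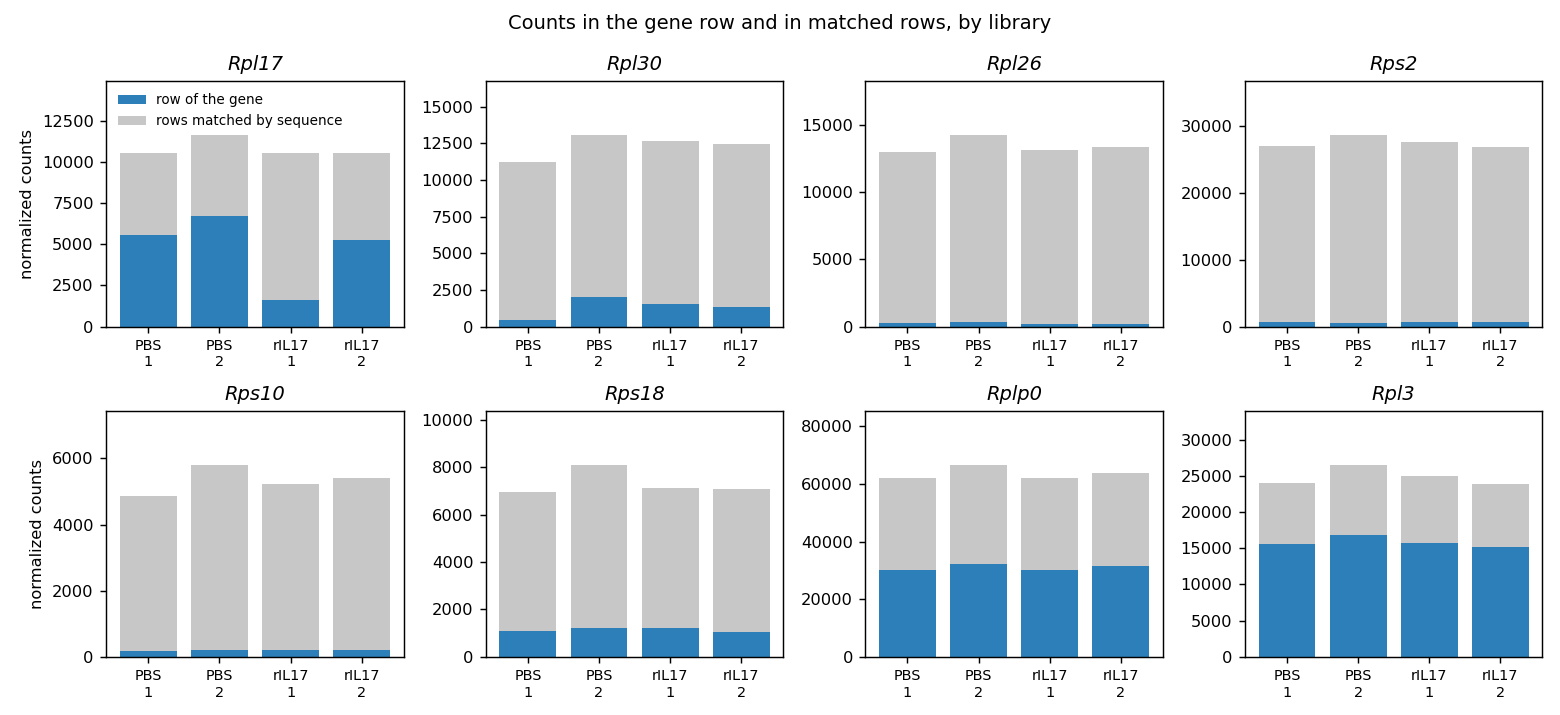
Normalized counts in the row of each gene (blue) and in the rows matched to it by sequence (grey, stacked on top) for 8 genes and 4 libraries. In Rpl17 the own row is at 1607 in rIL17 replicate 1 and the total at 10557, and in Rpl26, Rps2 and Rps10 nearly all counts are in matched rows.

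The own rows of the other members at the bottom per kilobase were as follows. Rpl29 held 31.4 and 53.7 normalized counts in PBS and 50.3 and 61.2 in rIL17, 1.62% of its family. Rpl21 held 170 and 150 against 118 and 133, 5.67% of its family. Both treated libraries lay below both controls for Rpl21 (log2 fold change -0.35, limma adjusted p = 0.413), and the family sum gave -0.12. Rpl24 held 24.5 and 23.9 against 19.1 and 27.1, and 47.0% of its exon bases overlap Gm28037 on the same strand. With matched rows its family reached a mean of 175 only.

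Summed over families, the lower extreme was nearer to 0 and the upper one, Rpl22l1, was not. Of 81 families, 65 had a log2 fold change below 0, the median was -0.048 and 74 lay within 0.2 of 0. The range was -0.41 (Rps27a) to 1.63 (Rpl22l1). In that fit 0% of all rows were called, the smallest adjusted p of a family was 0.368, and 1 family had an unadjusted p below 0.05. Of the 13 members with under 1500 normalized counts in their own row, 12 had matched rows and 8 reached 1500 as a family. Reads of a gene and a near-identical copy can be split in the counting, so the own rows of these genes are uncertain, and whether the pseudogenes are transcribed was not tested.

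Genes that serve ribosome production were read beside the members. None of the lists had a gene called by limma, as for all genes. The genes named from each list are those with the smallest p, so their separation between groups follows from the choice and is read only over the whole list. Among 30 ribosome assembly factors, 27 had a log2 fold change below 0 with a median of -0.16. The rIL17 libraries were both lower than the PBS libraries for 21 and both higher for 0, against 20.0% and 25.4% of all genes. An unadjusted p below 0.05 was found for 10, against 2642 of all 20677 genes. The shares of all genes, here and for the lists below, include genes near the floor. Of the 12515 genes passing the stricter filter, 3173 had the lower and 3224 the higher order. Of the 324 other abundant genes, 136 and 67 did. Without PBS replicate 2, 29 of the 30 assembly factors were below 0 with a median of -0.14, and after GC correction 26 with a median of -0.093.

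Nip7, needed for maturation of the large subunit, had 1091 and 1157 normalized counts in PBS and 925 and 914 in rIL17 (log2 fold change -0.29, limma adjusted p = 0.370). Nolc1, a nucleolar chaperone of snoRNPs, had 3099 and 3203 against 2724 and 2687. Rrp9, a U3 snoRNP protein, had 1595 and 1682 against 1306 and 1401.

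Of 12 tested genes for RNA polymerase I and its factors, which make ribosomal RNA, 9 were below 0 with a median of -0.086, and 4 after GC correction, with a median of 0.024. Polr1e, a subunit of the polymerase, had 390 and 397 normalized counts in PBS and 350 and 338 in rIL17. Polr1b, the subunit next to the largest, had 1076 and 1210 against 975 and 972. Tcof1, the treacle protein of the nucleolus, had 2626 and 2669 against 2476 and 2462. Over the list, the treated libraries were the lower pair for 7 of 12 and the higher pair for 1, against 20.0% and 25.4% of all genes.

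Of 7 tested chaperones and quality-control factors of free ribosomal proteins, 7 were below 0 with a median of -0.12, 6 without PBS replicate 2 with a median of -0.11, and 5 after GC correction with a median of -0.034. Grwd1, a chaperone of Rpl3, had 1381 and 1456 normalized counts in PBS and 1191 and 1245 in rIL17. Tsr2, the chaperone of Rps26, had 468 and 453 against 404 and 383. Heatr3, which carries Rpl5, had 1404 and 1437 against 1317 and 1292. Over the list, both treated libraries were lower for 5 of 7 and higher for 0, against 20.0% and 25.4% of all genes.

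The 77 mitochondrial ribosomal protein genes, which serve a separate ribosome, were below 0 in 64 cases with a median of -0.11. Both rIL17 libraries were lower for 35 of 77 and higher for 6, against 20.0% and 25.4% of all genes. After GC correction 49 were below 0 with a median of -0.039. Without PBS replicate 2, 49 of 77 were below 0 with a median of -0.046, where 29 of 81 cytosolic genes were below 0 with a median of 0.023. The difference between the lists was not tested.

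The 17 translation factors and other genes whose mRNAs also carry the TOP motif were divided, with 9 below 0 and a median of -0.0050. Eif3l, a subunit of initiation factor eIF3, had 10767 and 11425 normalized counts in PBS and 10319 and 10286 in rIL17. Of 13 genes of growth signalling to ribosomes, 7 were below 0. Myc, the transcription factor that drives ribosome production, had 3844 and 3961 normalized counts in PBS and 3396 and 3552 in rIL17 (log2 fold change -0.17, limma adjusted p = 0.373), and its log2 fold change was -0.042 after GC correction. Rheb, the activator of mTORC1, had 2003 and 1732 against 2364 and 2107, and Tsc1, a subunit of its inhibitor, had 1077 and 1045 against 1139 and 1146, both with the treated libraries higher. In the growth list, both treated libraries were lower for 5 of 13 genes and higher for 5, against 20.0% and 25.4% of all genes.

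Of the 4 genes on the p53 arm of ribosomal stress, 3 were above 0. Cdkn1a, the cell-cycle inhibitor p21, had 553 and 596 normalized counts in PBS and 694 and 698 in rIL17 (log2 fold change 0.28, limma adjusted p = 0.373). Mdm2, the ubiquitin ligase of p53, had 1011 and 974 against 1079 and 1060. Trp53, the p53 gene, had 1383 and 1466 against 1137 and 1227 (log2 fold change -0.27, limma adjusted p = 0.373). After GC correction, the value for Trp53 was -0.14. Mdm4, an inhibitor of p53 and the remaining gene of the list, had 3041 and 2556 against 3100 and 3038, with overlapping groups. Rps27l, described above as a p53 target, had lower counts in rIL17 than in PBS in these libraries. Whether p53 is active in these cells was not tested, so these values are not read as a p53 response.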

How the data were processed

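RNA libraries came from a directional kit, per the labels' protocols. Per the submitters' processing notes, CASAVA, HISAT2 2.0.5, featureCounts 1.5.0-p3 and the build mm10 were used. The sources used here give neither the annotation nor the strand setting of featureCounts nor the origin of the size factors. The deposited values are a normalized signal, 1 column per library, and 100.0% were within 0.001 of a whole multiple of 1 step per library, so they were read as counts divided by a size factor. Tests for raw counts with edgeR or DESeq2 were not run, and the limma-voom fit took the normalized values as its input.

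Genes with a mean of at least 1 in 1 group were tested with limma 3.58.1 (R 4.3.3, mean-variance trend) on log2(value + 1), with treatment as the only term. This scale understates changes of low genes. The stricter filter asked for values of 10 in all libraries of either group and for 1 CPM on average. Errors are SE, and intervals cover 95%. Symbols and coordinates are from GENCODE M21 and motifs from RefSeq promoters. Matched rows were found with blastn 2.17.0, and summing families was chosen after seeing the data. GC correction was a loess (span 0.3) of each library on transcript GC. The members and lists were chosen with earlier results of these data known. Named genes are the paralogs and their namesakes, the 8 members with the smallest p, the 4 highest and 4 lowest per kilobase, the stalk genes with Rpsa, and up to 3 genes per list with the smallest p. The result for 1 listed gene is not reported here. In counts simulated for rIL17 against PBS over 20428 genes, 22% of 2-fold and 68% of 4-fold changes were recovered. With the stricter filter over 12520 genes it was 98% and 100%, with 7 false among 205 calls. The changed genes were drawn only from genes with means well above both filters, and the spread was averaged over genes of similar level. Changes as small as those of most members were not simulated.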

Additional observations from a re-analysis of the deposited data

How the results depend on the processing

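Calls among the ribosomal protein genes stayed at 0 in all 16 alternatives run. The smallest adjusted p of a member ran from 0.0946 (GC correction with the replicate block) to 0.621 (without rIL17 replicate 1). The planned edgeR and DESeq2 fits were not run, since the deposited values are normalized. The number of members below 0 and their median log2 fold change depended on the controls and on the correction for GC content. With GC correction, alone or with the replicate block, 29 members were below 0 and the median was 0.037, where the median of all genes moved from 0.014 to 0.064. Leaving out each library in turn, the number ran from 29 (without PBS replicate 2) to 73 (without PBS replicate 1) and the median from -0.13 to 0.023. The median of all genes was 0.0087 without PBS replicate 2 and 0.0069 without PBS replicate 1. For the members, upper-quartile scaling gave 73 and -0.099, and total-count scaling 70 and -0.076. The median of all genes then moved to -0.051 and -0.028, in the same direction. The cause was not tested.

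With GC correction, with or without the replicate block, these log2 fold changes turned above 0, though not all above the median of all genes (0.064): Rpl14 to 0.025, Rpl24 to 0.017, Rpl3 to 0.037, Rpl36 to 0.091, Rpl36a to 0.061, Rpl41 to 0.0067, Rplp0 to 0.11, Rplp1 to 0.12, Rplp2 to 0.099, Rps15 to 0.059, Rpsa to 0.080, Rps18 to 0.082, Fau to 0.014, Rack1 to 0.047 and Tcof1 to 0.026. With summed families, Rpl29 turned to -0.0057 and Rps2 to -0.034, with either filter. Leaving out each library in turn moved Rpl24 between -0.33 and 0.16, Rpl36 between -0.16 and 0.093, Rpl36a between -0.11 and 0.072, Rplp0 between -0.059 and 0.029, Rplp1 between -0.084 and 0.072, Rplp2 between -0.14 and 0.069, Rps15 between -0.14 and 0.021, Rps27 between -0.020 and 0.16, Rpsa between -0.054 and 0.011, Rpl30 between -0.45 and 1.65, Rps10 between -0.031 and 0.20, Rps18 between -0.13 and 0.087 and Rack1 between -0.081 and 0.025. Where 1 library is left in a group, it is assumed to vary like the other group.

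The replicate number shared by the groups was tried as a block. The deviations of same-numbered libraries correlated at 0.16 over 12515 genes, and with 2 pairs this does not show a pairing. The replicate block left the median at -0.047 and 62 members below 0, with 0 members called and a smallest adjusted p of 0.407 by limma. Over all genes, the number called was 0 without the block and 0 with it, 78 higher and 23 lower with the stricter filter, 75 with GC correction, 403 with GC correction and the replicate block, 268 with robust shrinkage, 24 with total-count scaling, 1 with upper-quartile scaling and 1 with limma-voom. With 2 libraries per group, a change of the size seen in most members could not be told from the spread between libraries. Depth was ample for 66 of 82 members, with a mean of 5000 or more.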
